A study of Mus musculus with 4 samples.

Results

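The enzymes of conjugation, which attach a polar group to drugs, steroids, bile pigments and lipid peroxidation products, were examined in the fetal liver of mice. The members were the genes of the UDP-glucuronosyltransferase (Ugt1, Ugt2, Ugt3), glutathione S-transferase (Gsta, Gstm, Gstp, Gstt, Gsto, Gstk, Gstz and the microsomal Mgst) and sulfotransferase (Sult) families, taken by the gene symbol of the transcript that each probe was designed on. There were 59 such genes among the 22909 genes with a matched probe, namely 14 Ugt, 24 Gst or Mgst and 21 Sult genes. A gene was read from its brightest probe. Of the 70 genes of these families in RefSeq, 11 had no matched probe and were not analysed here, among them Ugt1a1, the enzyme that conjugates bilirubin, and Gsta1.

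Fetal livers at 14.5 dpc were compared between fetuses of C57BL/6J dams fed a control diet (CD, 4.3% of energy as fat, 19.2% as protein and 67.3% as carbohydrate) and fetuses of C57BL/6J dams fed a high-fat diet (HFD, 60% fat, 20% protein and 20% carbohydrate). The diets were given during gestation only, and the comparison asks what the maternal diet does to gene expression in the fetal liver. Each diet had 2 single-colour arrays, described as biological replicates, and the sources used here do not give the number of fetuses or dams behind an array. The p-values below therefore measure only the spread between these samples.

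Conjugation makes a compound more water-soluble, so that it can be exported into bile or urine. UDP-glucuronosyltransferases sit in the endoplasmic reticulum and use UDP-glucuronic acid, glutathione S-transferases use glutathione and are mostly cytosolic, and cytosolic sulfotransferases use the sulfate donor PAPS. In the liver many of these genes are under the control of hepatocyte factors such as HNF4A and of sensors of foreign compounds such as NRF2, AHR, PXR and CAR. The fetal liver at mid-gestation is also the main site of blood formation, so its RNA comes from hepatoblasts and from blood cells.

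All levels below are log2 intensities relative to the 75th percentile of the same array, so that 0 is the level of that percentile. Levels of different probes cannot be set against each other, and only differences between arrays of 1 probe are read. Between 65.4% and 70.0% of the spots of an array were well above background, which is called detected below. The arrays labelled replicate 1 and replicate 2 differed in sex-linked transcripts. The 4 Y-linked genes measured were well above background on array 1 of each diet and not on array 2, and Xist was well above background on array 2 of each diet and not on array 1, although the labels call every sample female. This difference was the same in both diets, so the diet comparison is balanced for it.

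The labelled tissue was borne out by its markers. All 13 hepatoblast and hepatocyte markers, Alb, Afp and Ttr among them, and all 12 matched erythroid markers were detected on every array. The summed linear level of the hepatocyte markers, in multiples of the 75th percentile, was 2154 and 3326 with CD and 2598 and 2635 with HFD. The erythroid markers summed to 2272 and 2868 with CD and to 2534 and 2830 with HFD. Neither sum separated the diets, while both were lowest on CD array 1 and highest on CD array 2. Single erythroid markers did separate them: Hbb-y, Hbb-bh1, Alas2, Slc4a1 and Ermap, 5 of the 12, did not overlap with HFD higher, against 23.1% of all genes, and none did with HFD lower, against 10.1%. The median log2 fold change of the 12, HFD minus CD, was 0.15, and the embryonic globin Hbb-bh1 (0.60) passed an unadjusted limma p of 0.05.

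Markers of other tissues were also present in the arrays. Of the 13 trophoblast and decidua markers detected in a diet group, 11 had a lower mean with HFD, 8 of them by more than 1 on the log2 scale. Filters on dim and variable probes left 6 of the 14 matched markers to test. Of these, Psg17 (log2 fold change -3.05) alone passed an unadjusted limma p of 0.05. The 14 summed to 99.3 and 126 with CD and to 78.9 and 93.3 with HFD. Most of this sum came from Gcm1 (0.55) and Psg23 (-0.19), so it does not show the size of the falls in the other markers. Syna was detected on no array. Of the 10 adrenal and gonad markers, 9 had a higher mean with HFD, beside 58.1% of all detected genes. The filters left 8 of the 10 to test. Cyp11a1, Nr5a1 and Inha passed an unadjusted limma p of 0.05, against 2.84% of all genes tested. The 10 summed to 38.0 and 52.7 with CD and to 41.8 and 51.7 with HFD. The largest part of this sum came from Foxl2 (-0.31), the only marker of the 10 with a lower mean. The 7 macrophage markers, of which Vsig4 was detected on no array, summed to 40.3 and 51.8 with CD and to 52.0 and 52.4 with HFD, and the 10 markers of gut, stomach and pancreas to 24.8 and 21.4 with CD and to 20.6 and 27.0 with HFD. The 8 kidney markers, of which Umod and Slc12a1 were detected on no array, summed to 3.28 and 2.15 with CD and to 3.03 and 3.74 with HFD. The largest part of this sum came from Six2 (-0.06). Of the 6 detected in a diet group, 4 had a higher mean with HFD and 2 a lower one. Cdh16 (2.10), which the filters left out of the test, did not overlap, with HFD higher. The part of all these tissue markers in the results for the conjugation enzymes was not tested. In such tissue RNA, fewer cells of a type and less RNA per cell cannot be told apart.

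Most conjugation enzymes were detected in the fetal liver. Of the 59 genes, 45 were detected on every array, 5 on some arrays (Ugt1a10, Ugt2a3, Ugt2b1, Sult1c2 and Sult1e1) and 9 on none. Of all 22909 genes with a matched probe, 16595 were detected on every array. The share detected on all arrays was 23 of 24 for the Gst and Mgst genes, 10 of 14 for the Ugt genes and 12 of 21 for the Sult genes. The genes detected on no array were Ugt1a6a, Gstt4, Sult2a3, Sult2a5, Sult2a7, Sult3a1, Sult3a2, Sult6b1 and Sult6b2. The filters on dim and variable probes left 50 members to test, namely 13 Ugt, 23 Gst or Mgst and 14 Sult genes, and left out 9, which were Ugt2a3 and the genes detected on no array other than Ugt1a6a.

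No conjugation enzyme gene passed the test of the diets. None of the 50 tested members had an unadjusted limma p under 0.05, against 2.84% of all 18192 genes tested. Under the methods' t-test 2 members had such a p, against 6.27% of all genes. No gene of the array had an adjusted limma p under 0.05 (0%). The smallest unadjusted member p was 0.069, for Ugt1a6b, and its adjusted value was 1.00, as for every other tested member. An exact permutation test of 2 against 2 arrays cannot give a two-sided p below 0.333, so it was not used for single genes. The median log2 fold change, HFD minus CD, was 0.14 over the 46 members detected on both arrays of a diet, beside 0.04 over the 17159 genes detected in the same way. The mean was higher with HFD for 35 of these 46 members (76.1%) and for 58.1% of all those genes, and with other scalings of the arrays for 33 or 35 of them. This majority turned when CD array 1 was left out, with 17 of 46 members higher with HFD, against 41 of 46 without CD array 2. The members' changes lay between -0.51 and 0.56, so none reached 1 on the log2 scale.

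The interval of the change shows what the arrays could exclude. For 38 of the 50 tested members the 95% confidence interval from limma lay between -1 and 1 on the log2 scale. The same was true of 14254 of the 18192 genes tested on the arrays. Among the members this held for 10 of 13 Ugt genes, 22 of 23 Gst and Mgst genes and 6 of 14 Sult genes. The widest intervals were those of Ugt3a1 (-1.72 to 1.08) and Sult2a1 (-1.17 to 1.498).

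**Figure D1:**
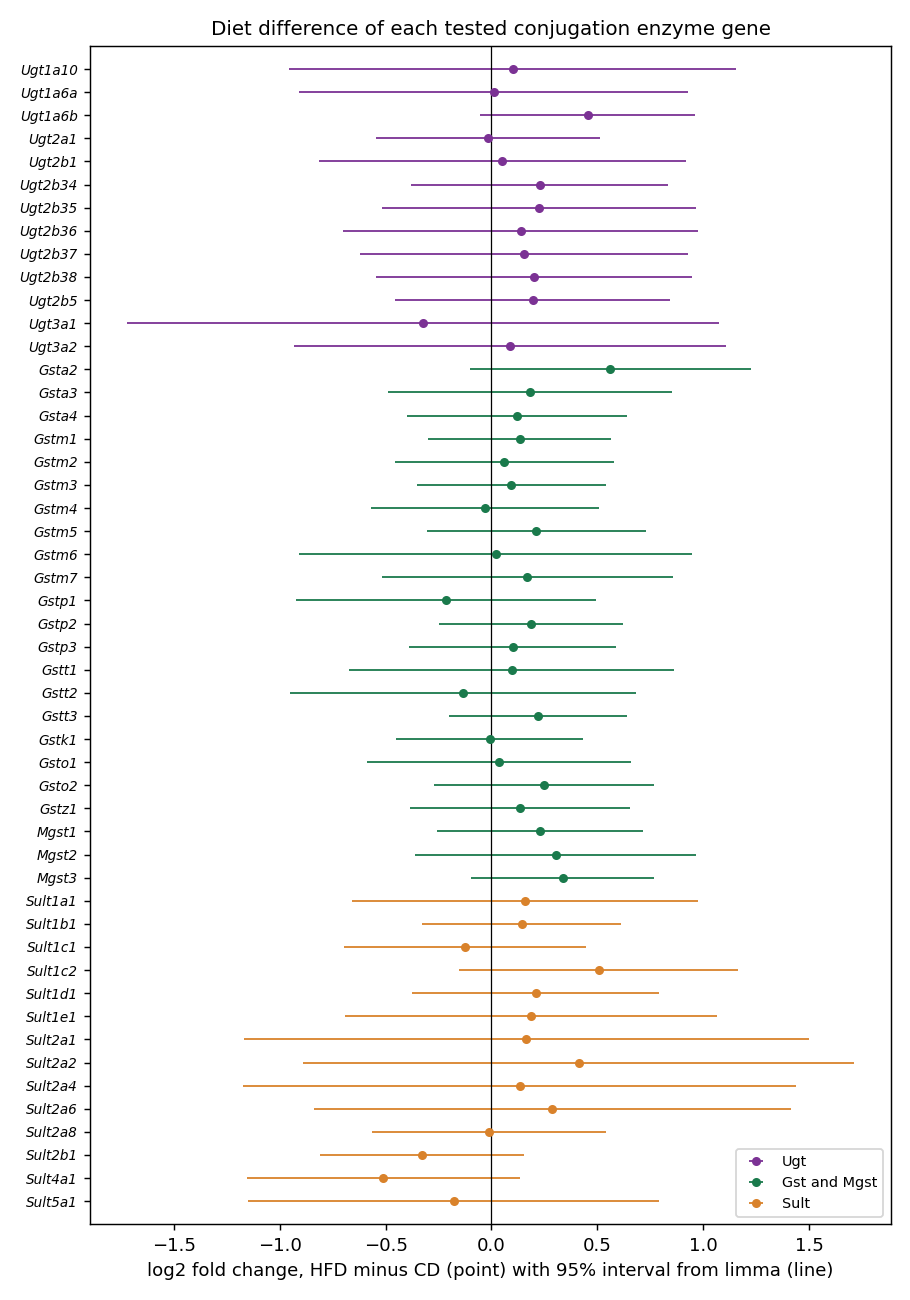
Log2 fold change, HFD minus CD, of the 50 tested conjugation enzyme genes (points, 2 arrays per diet) with the 95% confidence interval from limma (lines), coloured by family. Every interval includes 0, and the changes run from -0.51 for Sult4a1 to 0.56 for Gsta2.

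**Figure D2:**
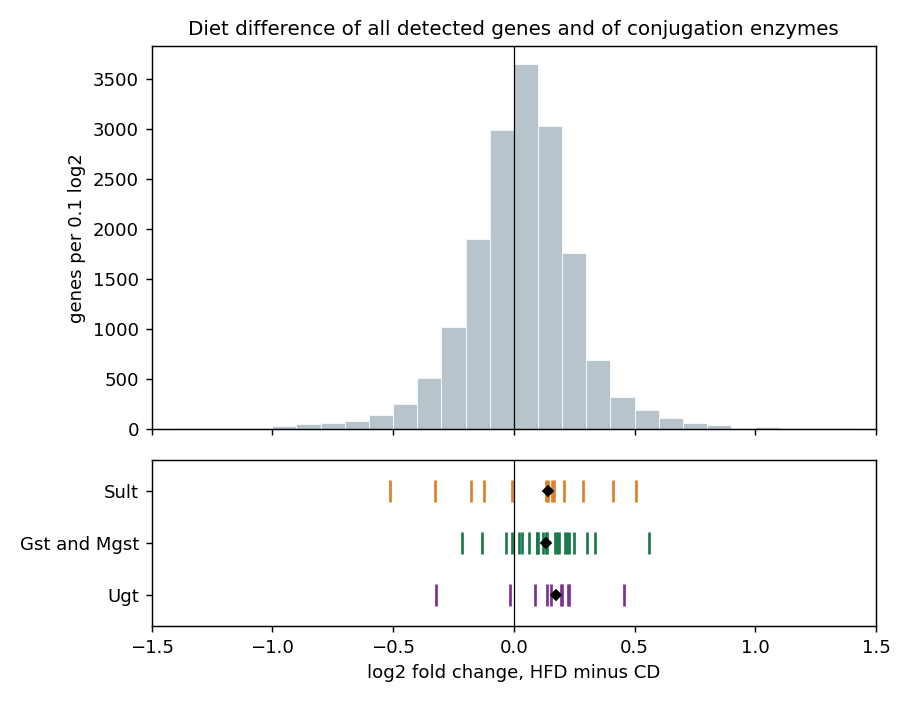
Upper panel: number of genes per 0.1 of the log2 fold change, HFD minus CD, over the 17159 genes detected on both arrays of a diet, of which 99 lie outside the axis. Lower panel: each detected conjugation enzyme gene as a tick and the median of its family as a diamond, at 0.17 for Ugt, 0.13 for Gst and Mgst and 0.14 for Sult (0.09, 0.11 and 0.02 with normexp background correction).

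The arrays of the 2 diets did not overlap for 11 tested members. Both HFD arrays were above both CD arrays for 9 of 50 members, a smaller share than the 23.1% of all genes, and these were Ugt1a6b, Gsta2, Gstm1, Gstp2, Gstt3, Gsto2, Mgst1, Mgst3 and Sult1c2. Both HFD arrays were below both CD arrays for 2 members, Sult2b1 and Sult4a1, also a smaller share than the 10.1% of all genes. Of the 9 genes, 7 were among the 23 tested Gst and Mgst genes, 1 among 13 Ugt genes and 1 among 14 Sult genes. The share over all genes was 23.1%, and whether the families differ was not tested.

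The CD arrays lay further apart than the HFD arrays. The gap between the arrays of a diet was larger for CD than for HFD in 42 of the 46 detected members (91.3%) and in 79.4% of all detected genes. CD array 2 was above CD array 1 for 36 of the 46 members, with a median gap of 0.35, beside 55.9% and 0.07 over all detected genes. HFD array 2 was above HFD array 1 for 9 members, with a median gap of -0.11, beside 42.4% and -0.02 over all detected genes. For 36 members (78.3%) the difference between the diets was smaller than the gap between the CD arrays, as for 72.0% of all detected genes. For 22 members (47.8%) both HFD arrays lay between the CD arrays, as for 40.9% of all detected genes.

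The hepatocyte markers moved with this gap. All 13 were higher on CD array 2 than on CD array 1, with a median gap of 0.51, and their median log2 fold change between the diets was -0.01. Both their levels and the sex-linked transcripts differed between the CD arrays, and their part in the members' gap was not tested. Without CD array 2, 16 members had a higher level with HFD at an unadjusted limma p under 0.05 and 3 a lower one. The higher ones were Ugt1a6b, Gstt1, Sult1a1, the 3 Mgst genes, the 6 Ugt2b genes described below, Sult2a1, Sult2a2, Sult2a4 and Sult2a6. The lower ones were Sult2b1, Sult4a1 and Sult5a1. Without CD array 1, 1 was higher (Gsta2) and 4 were lower (Ugt3a1, Gstp1, Gstt2 and Sult2a4), and the median change of the 46 members was -0.09. In these fits the lone CD array was taken to vary like the HFD arrays, and 15.1% and 17.3% of all genes had such a p.

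**Figure D3:**
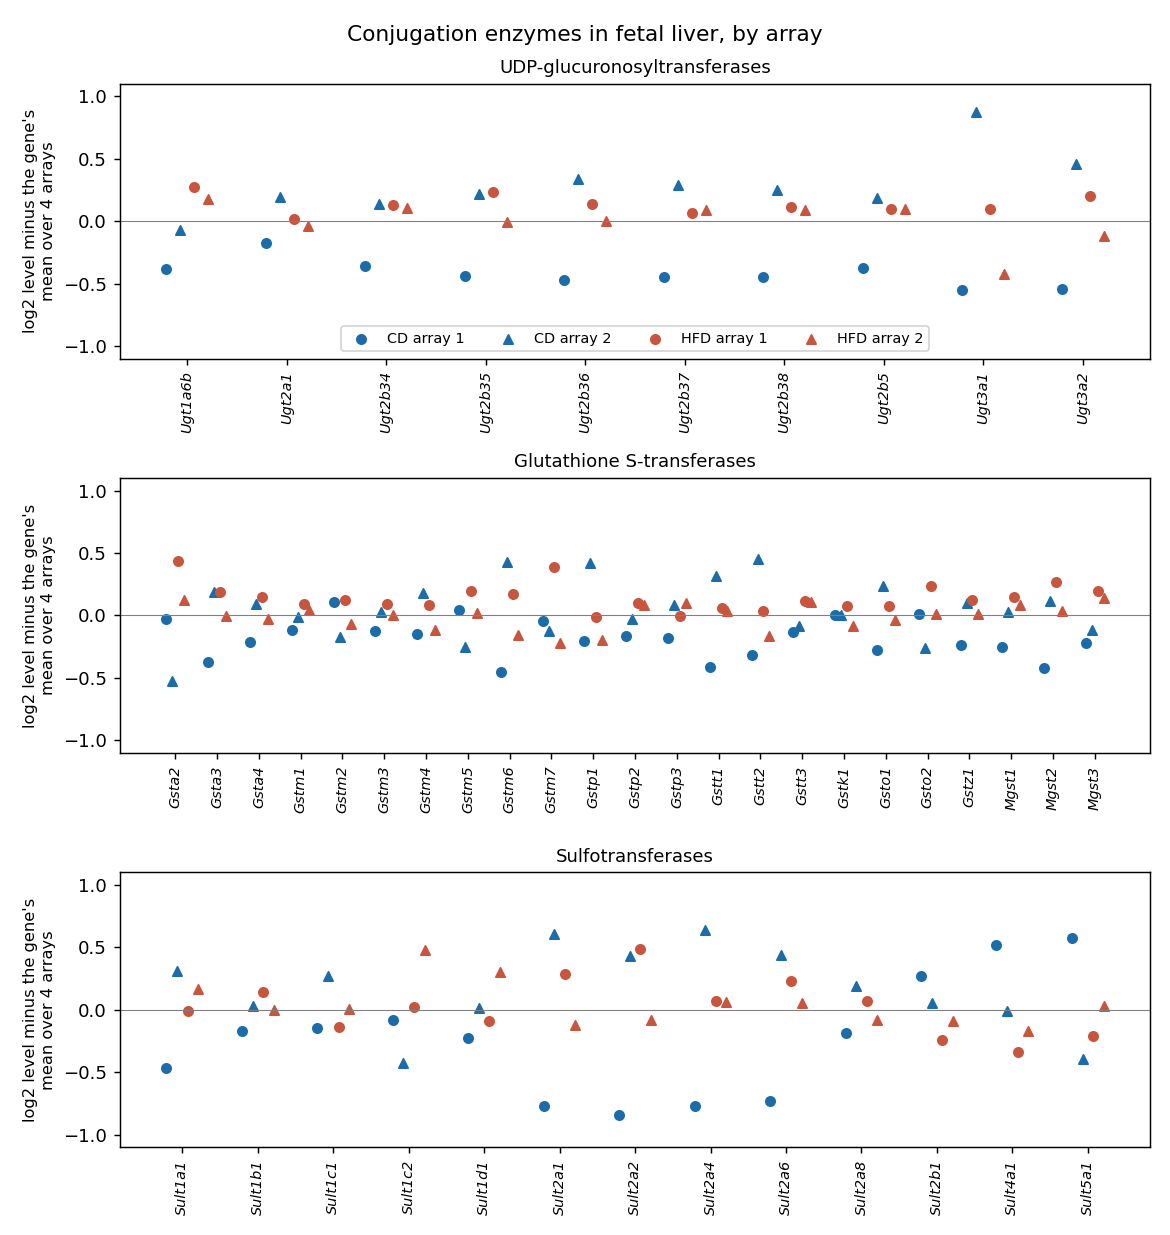
Log2 level on each array minus the gene's own mean over the 4 arrays, for the 46 conjugation enzyme genes detected on both arrays of a diet. Blue points are CD, red points HFD, circles array 1 and triangles array 2. For 22 genes both HFD arrays lie between the CD arrays, among them 6 of the 7 Ugt2 genes.

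**Figure D4:**
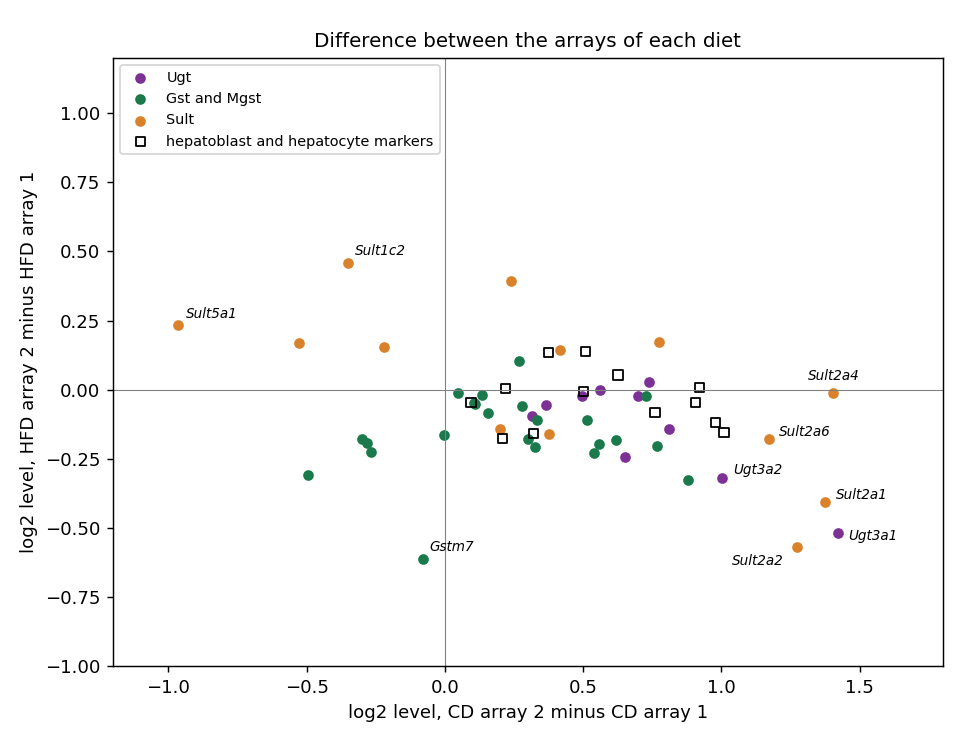
Difference in log2 level between the arrays of each diet, CD on the horizontal and HFD on the vertical axis, for the 46 detected conjugation enzyme genes (filled points) and 13 hepatoblast and hepatocyte markers (open squares). The genes furthest to the right are Ugt3a1, Sult2a4, Sult2a1 and Sult2a2, with CD gaps of 1.42, 1.40, 1.37 and 1.28.

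Among the UDP-glucuronosyltransferases, the Ugt1 genes lie in 1 locus on chromosome 1 where each gene has its own first exon and all share the last exons. Ugt1a6b, whose product conjugates small phenols, was measured at 1.75 and 2.06 with CD and at 2.40 and 2.31 with HFD. The diets did not overlap, and the log2 fold change was 0.45 (SE 0.19, 95% interval -0.05 to 0.96, limma adjusted p = 1.00). The other 2 probes designed on its transcript differed between the diets by 0.06 and 0.14, and CD array 2 was above both HFD arrays on both of them. Probe sequences were not used here, so whether a probe lies in the shared exons, and so reads the whole locus, was not tested. Ugt1a10 was above background on 1 array of each diet only.

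The Ugt2b genes lie side by side on chromosome 5, and their products conjugate steroids and bile acids. The 6 that were detected on every array (Ugt2b5, Ugt2b34, Ugt2b35, Ugt2b36, Ugt2b37 and Ugt2b38) had log2 fold changes of 0.14 to 0.23, with standard errors of 0.23 to 0.32. Ugt2b34 was at 3.87 and 4.36 with CD and at 4.35 and 4.33 with HFD. As in Ugt2b34, CD array 1 was the lowest of the 4 arrays in all 6 genes, by 0.50 to 0.81 below CD array 2. The largest gap between the HFD arrays in these genes was 0.24. Since these genes are close in sequence, a probe may read more than 1 of them, and their like patterns are not 6 independent measurements.

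The remaining Ugt2 genes were Ugt2a1, with the same lowest array and a CD gap of 0.36, and the dim Ugt2b1 and Ugt2a3. Ugt2a1, known from the olfactory epithelium, was at -0.75 and -0.38 with CD and at -0.55 and -0.61 with HFD. Its log2 fold change was -0.02 (SE 0.20), and both HFD arrays lay between the CD arrays. Ugt2b1 was detected on HFD array 1 only, at -5.93 and -5.48 with CD and at -5.28 and -6.02 with HFD, so the diets overlapped (limma adjusted p = 1.00). Ugt2a3 was well above background on CD array 1 only and was not tested.

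The Ugt3 genes, on chromosome 15, encode enzymes that prefer sugars other than glucuronic acid. Ugt3a1 was at -4.21 and -2.78 with CD and at -3.56 and -4.08 with HFD, the widest CD gap of the detected members. Its log2 fold change was -0.32 (SE 0.53). It was -1.03 without CD array 1, with an unadjusted p under 0.05, and 0.39 without CD array 2. Ugt3a2 was at -3.56 and -2.55 with CD and at -2.81 and -3.13 with HFD, a log2 fold change of 0.09 (SE 0.38). Both HFD arrays of both genes lay between the CD arrays.

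Glutathione S-transferases were the best covered of the families. Of the 3 alpha genes, whose products reduce lipid hydroperoxides, Gsta2 had the largest change of the detected members. Gsta2 was at -2.98 and -3.48 with CD and at -2.51 and -2.82 with HFD, so the diets did not overlap. Its log2 fold change was 0.56 (SE 0.25, 95% interval -0.10 to 1.22), or 0.81 without CD array 1, where its unadjusted p was under 0.05, and 0.31 without CD array 2, where it was not. Gsta3 was at 3.34 and 3.90 with CD and at 3.90 and 3.70 with HFD, with overlapping diets, a change of 0.18 (SE 0.25) and a like change of 0.17 on its second probe. Gsta4, which conjugates the lipid aldehyde hydroxynonenal, had a change of 0.12 (SE 0.20).

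The 7 mu genes lie together on chromosome 3. A higher mean with HFD was found for 58.1% of all detected genes and for 6 of the 7, or 5 with each other scaling of the arrays. Their changes ran from -0.03 for Gstm4 to 0.21 for Gstm5, and every interval included 0. Gstm5 was at 5.12 and 4.82 with CD and at 5.27 and 5.09 with HFD, and its second probe gave a change of 0.35. The diets of Gstm5 overlapped by a narrow margin. Gstm1 did not overlap on its brightest probe (0.13, SE 0.16), while its other probe gave -0.06, so the 2 probes disagreed in sign. Gstm7 was the only mu gene whose HFD arrays differed by more than 0.5, at -1.64 and -2.26.

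The pi genes gave values of opposite sign. Gstp2 was at 6.51 and 6.64 with CD and at 6.77 and 6.75 with HFD, with no overlap and a change of 0.19 (SE 0.16). Gstp1 was at 2.97 and 3.59 with CD and at 3.15 and 2.97 with HFD, a change of -0.21 (SE 0.27). The diets of Gstp1 overlapped, and its change was -0.52 without CD array 1, with an unadjusted p under 0.05, and 0.09 without CD array 2. Gstp1 and Gstp2 are near-identical neighbours on chromosome 19, and their probes may read both. The difference between the genes was not tested.

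Theta, omega, kappa and zeta enzymes had small changes. Gstt1, which acts on small halogenated compounds, was at 3.69 and 4.41 with CD and at 4.16 and 4.13 with HFD. Both HFD arrays lay between the CD arrays, and the change was 0.10 (SE 0.29), or 0.46 without CD array 2, where its unadjusted p was under 0.05, and -0.27 without CD array 1. Gstt3 did not overlap, with a change of 0.22 (SE 0.16). Gsto1, a thiol transferase that also reduces dehydroascorbate, was at 4.48 and 4.997 with CD and at 4.83 and 4.72 with HFD, a change of 0.04 (SE 0.24) whose sign was turned by quantile normalization (-0.07), by the 75th percentile over detected probes (-0.0036) and by scaling to the hepatocyte markers (-0.00011). Gstk1 (-0.01), Gsto2 (0.25) and Gstz1 (0.14), an enzyme of tyrosine breakdown, had intervals that all included 0.

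The microsomal enzymes belong to a separate membrane protein family. Of the 3, 2 did not overlap on their brightest probe, with HFD higher, as did 23.1% of all genes. Mgst3, which has glutathione transferase and peroxidase activity, was at 4.61 and 4.72 with CD and at 5.03 and 4.98 with HFD. Its log2 fold change was 0.34 (SE 0.16, 95% interval -0.10 to 0.77). Both arrays of each diet lay close together, and the difference was larger than either gap. Under the methods' t-test, the per-gene test on these values without moderation, Mgst3 and Gstt3 were the members with a p under 0.05. Of all genes 6.27% had such a p, and the smallest p of a member adjusted over all probes was 0.950. Mgst1 did not overlap either on its brightest probe (0.23, SE 0.18). On its second probe (0.13, SE 0.22) both HFD arrays lay between the CD arrays. Mgst2 had a change of 0.30 (SE 0.25) with overlapping diets.

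Promoters of 51 of the 59 members were in the RefSeq table of sequences from 250 bases before to 50 bases after the transcription start (GRCm38.p6). The core of the antioxidant response element, the motif bound by NRF2 (TGACNNNGC, either strand), was in 4 of the 22 Gst and Mgst promoters, in none of the 12 Ugt and 17 Sult promoters, and in 14.0% of the promoters of all 27025 genes. Those of Gsta3 (chr1:21240335-21240634, plus strand) and Gstm5 (chr3:107895604-107895903, plus strand) are shown because these genes have the brightest alpha and mu probes and a core within the window. Capitals mark this core, which starts 121 bases before the start of Gsta3 and 42 bases before that of Gstm5. In Gstm5 it overlaps a match to the AHR core GCGTG.
Gsta3: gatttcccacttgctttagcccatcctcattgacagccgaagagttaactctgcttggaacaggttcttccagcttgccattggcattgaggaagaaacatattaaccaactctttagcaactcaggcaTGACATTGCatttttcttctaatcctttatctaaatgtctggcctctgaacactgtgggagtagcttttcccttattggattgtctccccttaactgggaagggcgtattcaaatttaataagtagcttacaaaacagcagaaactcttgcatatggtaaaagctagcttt
Gstm5: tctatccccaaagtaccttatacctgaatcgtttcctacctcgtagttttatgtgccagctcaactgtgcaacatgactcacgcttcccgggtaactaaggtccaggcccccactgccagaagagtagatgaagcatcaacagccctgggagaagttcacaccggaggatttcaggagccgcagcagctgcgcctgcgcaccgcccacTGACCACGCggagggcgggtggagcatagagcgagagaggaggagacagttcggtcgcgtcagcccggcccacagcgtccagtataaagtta

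Sulfotransferases had the most genes that were detected on no array. Sult1a1, the main phenol sulfotransferase, was at -0.13 and 0.64 with CD and at 0.33 and 0.50 with HFD. Both HFD arrays lay between the CD arrays, and the change was 0.16 (SE 0.31), or 0.54 without CD array 2, with an unadjusted p under 0.05, and -0.23 without CD array 1. Sult1c2 was at -5.70 and -6.05 with CD, where it was well above background on array 1 only, and at -5.60 and -5.14 with HFD. It did not overlap, with a change of 0.51 (SE 0.25), but its change was -0.06 with normexp background correction. Sult1b1, Sult1c1 and Sult1d1 had changes of -0.13 to 0.21 with overlapping diets, and the oestrogen sulfotransferase Sult1e1 was above background on 1 array of each diet.

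The Sult2a genes on chromosome 7 encode hydroxysteroid sulfotransferases, which act on steroids such as dehydroepiandrosterone and on bile acids. Sult2a2 was at -5.03 and -3.75 with CD and at -3.69 and -4.26 with HFD, and Sult2a1, Sult2a4 and Sult2a6 had the same lowest array. CD array 1 was 1.17 to 1.40 below CD array 2 in these 4 genes, which are close in sequence, and their changes between the diets were 0.13 to 0.41 with standard errors of 0.42 to 0.50. Sult2a4 was at -5.46 and -4.06 with CD and at -4.62 and -4.64 with HFD. Its change was 0.83 (adjusted p = 0.335) without CD array 2 and -0.57 (adjusted p = 0.222) without CD array 1, with an unadjusted p under 0.05 in both directions. Sult2a8, a bile acid sulfotransferase of mouse liver, also had CD array 1 lowest, with a smaller CD gap of 0.38. It was at 0.31 and 0.69 with CD and at 0.57 and 0.41 with HFD, a change of -0.01 (SE 0.21). Sult2a3, Sult2a5 and Sult2a7 were detected on no array.

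The sulfotransferases outside Sult1 and Sult2a held the 2 tested members whose HFD arrays were both below the CD arrays, as for 10.1% of all genes. Sult4a1, a conserved enzyme known from brain, was at -0.59 and -1.12 with CD and at -1.45 and -1.28 with HFD. Its log2 fold change was -0.51 (SE 0.24, 95% interval -1.16 to 0.13), or -0.78 without CD array 2, where its unadjusted p was under 0.05, and -0.25 without CD array 1, where it was not. Sult2b1, which sulfates cholesterol, was at -3.43 and -3.65 with CD and at -3.95 and -3.80 with HFD, a change of -0.33 (SE 0.18). Sult5a1 was at -1.03 and -1.996 with CD and at -1.81 and -1.58 with HFD, so both HFD arrays lay between the CD arrays and the change was -0.18 (SE 0.37). In all 3 genes CD array 1 was above CD array 2, opposite to the Ugt2b and Sult2a genes.

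The genes around the conjugation enzymes showed no called change either. Of 87 genes listed for donor supply, deconjugation, export, other conjugating enzymes, regulators and targets of NRF2 and AHR, 84 had a matched probe and 81 were tested. None had an unadjusted limma p under 0.05, the diets did not overlap with HFD higher for 24 and lower for 7 of the 81 (23.1% and 10.1% of all genes), and the median change of the 80 detected genes was 0.11. All 5 genes of UDP-glucuronic acid supply had a higher mean with HFD, by 0.06 to 0.24, as had 58.1% of all detected genes. The 7 genes of sulfate donor supply had changes of -0.16 to 0.21. The glutathione genes ran from -0.56 to 0.45, and Gclc and Gclm, the subunits of the rate-limiting enzyme of glutathione synthesis, had changes of -0.0049 and 0.05.

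Among the regulators, 12 of 13 had a higher mean with HFD (10 or 11 with other scalings), beside 58.1% of all detected genes. The changes of the 13 ran from -0.14 to 0.40. Nfe2l2, the gene of NRF2, was at 2.67 and 3.05 with CD and at 3.07 and 2.94 with HFD (0.14, SE 0.21). Of the 12 tested targets of NRF2 and AHR, 6 did not overlap with HFD higher and 1 with HFD lower, against 23.1% and 10.1% of all genes. The smallest unadjusted p-values of all these lists, 0.052 to 0.053, belonged to 3 genes chosen after their values were seen: the aldo-keto reductase Akr1b8 (0.43, SE 0.17), the sulfiredoxin Srxn1 (0.44, SE 0.17) and the glutathione-cleaving enzyme Ggt5 (-0.56, SE 0.21). Akr1b8 was at 2.13 and 1.99 with CD and at 2.45 and 2.53 with HFD, and Srxn1 was at 1.94 and 2.04 with CD and at 2.35 and 2.51 with HFD. Of the 11 exporters of conjugates, 1 did not overlap in each direction, Abcg2 (0.29, SE 0.18) and Abcc1 (-0.36, SE 0.16).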

How the data were processed

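Liver RNA was hybridised by the authors, after labelling with Cy3, to 4 single-colour Agilent mouse arrays (2 per diet), read with Agilent Feature Extraction 11.0.1.1 and scaled in GeneSpring. Groups and replicate numbers came from the labels, and age and filters from the study. The intensity the authors deposited for each spot had its background and spatial trend removed, with no scaling across arrays. Further columns hold median brightness, local background and flags, which are deposited scores of 0 or 1. The authors' deposited table of normalized signal holds, within 0.1% for 100% of the probes compared, the intensity divided by 1 constant per array (1068 and 702 for CD, 967 and 906 for HFD).

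Spots with an outlier flag were left out, the log2 intensities of a probe were averaged, and each array's 75th percentile was subtracted. Left out were probes below the 20th percentile of at least 1 array and those whose CV exceeded 50% in both diets, and 41332 of 56605 probes were tested. The study takes the CV of a log scale value. The linear CV was used here. The test was a linear model per probe, HFD minus CD and without covariates, moderated by eBayes in limma 3.58.1 (R 4.3.3), with Benjamini-Hochberg adjustment over all tested probes. Values were prepared with Python 3.11.15 and pandas 2.3.3 and plotted with matplotlib 3.10.9, and the fit was tested on simulated data. Depth has no count here, and the number of arrays limits the precision.

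Of 56605 probes, 32994 were matched by transcript to a RefSeq gene (GRCm38.p6). Promoters are from RefSeq on the same build. Motifs were searched on both strands.

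The members and gene lists were chosen with earlier results of these data known, so the lists are not independent evidence. Named were any member with an unadjusted p under 0.05, the brightest member of each subfamily, the 5 members with the largest rise and the 5 with the largest fall, and any listed gene around conjugation with such a p. Other genes were named after their values were seen. A further regulator is not reported here. Alternatives were other normalizations (quantile, 75th percentile over detected probes, normexp, offset 50), the values of the deposited table, a floor of 5 under the intensities, looser and stricter filters, the mean over a gene's probes, 1 probe per gene, the methods' t-test (also with Welch's correction), a block for the replicate number, each array left out, and, added after seeing the data, scaling to the hepatocyte markers. Normexp used the median brightness. The correlation of replicate differences between the diets was -0.0997 over tested probes, so the numbers were not taken to pair the samples.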

Additional observations from a re-analysis of the deposited data

How the results depend on the processing

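The fold changes rest on 2 arrays per diet, and dim genes near background are the least certain. Leaving out 1 array at a time gave 0 to 16 members higher and 0 to 4 lower at an unadjusted p under 0.05, and the median change of the members ran from -0.093 to 0.31. The genes around conjugation gave 0 to 18 higher and 0 to 6 lower. These extremes came from leaving out CD array 2 (16 members and 18 genes around conjugation higher) or CD array 1 (4 and 6 lower, the median of -0.093). No member or listed gene had an adjusted p under 0.05 under any alternative run.

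Quantile normalization turned Gsto1 to -0.067, the 75th percentile over detected probes to -0.0036, the mean over a gene's probes to -0.014 (and Sult5a1 to 0.073), and scaling to the hepatocyte markers, added after seeing the data, to -0.00011. Normexp background correction gave 1 member higher, Ugt1a6b (0.44, unadjusted p under 0.05), turned Sult1c2 to -0.063 and gave 4 genes around conjugation higher. The methods' t-test (unadjusted p under 0.05 for 6.27% of all genes) gave 2 members higher, and none after adjustment. It gave 6 genes around conjugation higher and 2 lower at that threshold, and none after adjustment. Welch's correction gave 2 of those genes higher and 1 lower, and so did the filter to probes well above background, the mean over probes and 1 probe per gene. The 75th percentile over detected probes gave 2 lower, the deposited table and no percentile filter 1 lower each, and scaling to the hepatocyte markers 1 higher. With the replicate number as a block, 0 members passed and 1 gene around conjugation was higher, with no other change of a count or sign. Normexp lowered the median of the Sult genes from 0.14 to 0.02 and that of the Ugt genes from 0.17 to 0.09. The cause of these differences was not tested.

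Leaving out 1 array turned the sign of 11 of the members named by the rule above. Other members described in the text turned too, among them Ugt2b5 (-0.09 without CD array 1, 0.47 without CD array 2) and Sult2a1 (-0.52 and 0.85). The values of the 11 follow. Without CD array 1 and without CD array 2, respectively, the log2 fold change was -0.099 and 0.46 for Gsta3, -0.22 and 0.29 for Gsto1, -0.52 and 0.095 for Gstp1, -0.27 and 0.46 for Gstt1, -0.23 and 0.54 for Sult1a1, -0.23 and 1.05 for Sult2a2, -0.20 and 0.18 for Sult2a8, 0.30 and -0.66 for Sult5a1, -0.021 and 0.48 for Ugt2b34, -1.03 and 0.39 for Ugt3a1 and -0.42 and 0.59 for Ugt3a2. Among these 11, the sign turned without HFD array 1 for Gsto1 (-0.020) and Ugt3a2 (-0.073), and without HFD array 2 for Sult2a8 (0.070). A block for slide or scan was not run, as all arrays shared 1 of each.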
